A study of Mus musculus with 6 samples.

Results

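The genes described here are 97 mouse genes of enzyme families known for foreign-compound metabolism, of 11138 named genes on the arrays. They comprise cytochrome P450s of the Cyp2, Cyp3 and Cyp4 families, aldehyde dehydrogenases (Aldh), carbonyl reductases (Cbr), glutathione transferases (Gst and Mgst), sulfotransferases (Sult) and genes with a Ugt symbol, mainly glucuronosyltransferases. Members were chosen by gene symbol alone, from features with 1 symbol, and Aldh3a1, Gstm1 and Ugt1a6a were set apart by the rule. A symbol does not show that a member acts on foreign compounds. Phase I had 60 members, with 27 Cyp2, 5 Cyp3, 11 Cyp4, 15 Aldh and 2 Cbr genes. Phase II had 37 members, with 20 Gst, 2 Mgst, 10 Sult and 5 Ugt genes. No filter on low values was applied, so all 97 entered every comparison.

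Phase I enzymes add or expose a reactive group on a lipophilic compound, usually by oxidation or reduction. Phase II enzymes couple that group to glutathione, sulfate or glucuronic acid, which makes the product easier to excrete. Both sets are best known from liver and from airway epithelium, and several members also act on hormones, retinoids or lipid mediators made in the body. Compounds of tobacco smoke reach their genes through the aryl hydrocarbon receptor, which binds dioxin response elements, and through Nrf2, which binds antioxidant response elements.

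The study compared endothelial cells, described as sorted on the 1-week arrays, of smoke-exposed and control mice. The exposure in the series title is environmental tobacco smoke. Each of 6 arrays with 2 dye channels gave the log2 ratio of smoke to control: 2 arrays of 6-week smoke against 1-week control, 1 array of 6-week smoke against 6-week control, and 3 arrays of 1-week smoke against control. The first pair (6-week replicates 1 and 2) is a dye swap and was averaged, which left 2 replicates at 6 weeks and 3 at 1 week. The dye-reversal label of 1-week replicate 1 names no partner array, and it was counted as a replicate of its own. Whether it shared RNA with another 1-week array was not established. Strain, age, sex, organ and genotype of the mice were not given in the sources used here, nor whether the replicates were separate animals or pools, so the p-values measure only the spread between these arrays. The dye swap sets 6-week smoke against 1-week control, so within it length of exposure and the week of the control cannot be told apart.

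On every array the labels put smoke in channel 1 and control in channel 2, so a positive value is called here likely higher after smoke. That direction rests on the labels, since 1-week replicate 1 and 6-week replicate 2 carry a dye-reversal label and whether the submitters had already turned their ratios was not stated. All arrays were used as deposited, and for part of the results the values with the dye-reversed arrays turned are given beside. Results without such values may depend on that direction as well. Ratios hold no level, so neither the abundance of a gene nor the presence of endothelial markers can be read from them. In bulk RNA, fewer cells of a type and less RNA per cell cannot be told apart.

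Promoters of 3 members are shown because Aldh1a1 and Gstp1 kept 1 sign on every array, in opposite directions, and because Gstm5 is a member whose window holds both motifs searched. Each is the 250 bases before the RefSeq start in GRCm38.p6, written 5′ to 3′ on the strand of the gene. Aldh1a1 lies at chr19:20492333-20492582 on the plus strand, Gstp1 at chr19:4037913-4038162 on the minus strand, and Gstm5 at chr3:107895604-107895853 on the plus strand. Capitals mark the dioxin response element core, GCGTG or on the other strand CACGC, and the antioxidant response element core, TGACNNNGC or on the other strand GCNNNGTCA. In Gstm5 the last CACGC lies within the antioxidant match.
Aldh1a1: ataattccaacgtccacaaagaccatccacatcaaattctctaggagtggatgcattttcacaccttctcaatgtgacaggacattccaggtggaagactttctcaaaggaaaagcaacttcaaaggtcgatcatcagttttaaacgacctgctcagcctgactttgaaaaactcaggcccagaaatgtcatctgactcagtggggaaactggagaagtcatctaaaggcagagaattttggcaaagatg
Gstp1: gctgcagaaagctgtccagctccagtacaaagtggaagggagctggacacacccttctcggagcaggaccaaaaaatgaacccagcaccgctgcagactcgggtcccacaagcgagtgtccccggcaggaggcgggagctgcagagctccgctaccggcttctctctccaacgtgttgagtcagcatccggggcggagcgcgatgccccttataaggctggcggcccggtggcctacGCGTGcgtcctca
Gstm5: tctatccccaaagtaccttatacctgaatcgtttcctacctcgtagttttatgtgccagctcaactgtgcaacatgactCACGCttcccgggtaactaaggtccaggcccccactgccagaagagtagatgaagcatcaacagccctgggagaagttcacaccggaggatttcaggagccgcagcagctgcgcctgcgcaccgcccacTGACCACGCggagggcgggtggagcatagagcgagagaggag

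The Aldh1a1 window shown holds neither motif, the Gstp1 window holds 1 dioxin core, and the Gstm5 window holds 2 dioxin cores on the other strand and 1 antioxidant core. RefSeq windows were found for 84 of the 97 members. The dioxin core stood in 20 of the 84 (23.8%), against 30.9% of 27025 genes with a window. The antioxidant core stood in 8 of 84 (9.52%), against 11.5% of all genes. The 20 members with a dioxin core had a median log2 ratio of -0.07 at 6 weeks and -0.05 at 1 week, and the 64 without had -0.02 and 0.00. The 8 with an antioxidant core had medians of 0.02 and 0.01, and the 76 without had -0.05 and -0.01. A match is a run of letters, not a bound site.

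No member passed an adjusted p of 0.05 at 6 weeks, at 1 week, in the difference between the times or in the mean of both times, in limma's moderated test with Benjamini-Hochberg adjustment over 19242 named genes and unnamed features. None of those 19242 passed either, so 0% of named genes were called in each comparison. At an unadjusted p under 0.05, the members numbered 6 at 6 weeks (6.19% of 97, against 4.03% of named genes) and 6 at 1 week (6.19%, against 7.49%). For the difference between the times the count was 3 (3.09%, against 3.38%), and for the mean of both times it was 7 (7.22%, against 7.44%). By direction, positive members at 6 weeks were Aldh1a1, Cyp4f18 and Ugt2a3 (3.09%, against 2.2% of named genes) and negative ones Aldh16a1, Gstt2 and Gstt4 (3.09%, against 1.83%). At 1 week the positive members were Cyp2g1, Cyp2j9, Cyp4b1 and Sult1c2 (4.12%, against 3.93%) and the negative ones Aldh7a1 and Gstm6 (2.06%, against 3.56%). The difference, 6-week minus 1-week, was positive for Aldh7a1 (1.03%, against 1.53%) and negative for Cyp2j9 and Cyp4b1 (2.06%, against 1.86%). The mean of both times was positive for Aldh1a1, Cyp2g1, Sult1c2 and Ugt2a3 (4.12%, against 3.77%) and negative for Gstm6, Gstt2 and Gstt4 (3.09%, against 3.67%). The smallest adjusted p of a member was 1 at 6 weeks (Gstt4), 0.601 at 1 week (Aldh7a1) and 0.658 for the mean of both times (Aldh1a1). Counts at 1 week, for the difference and for the mean of both times stood at or below the share of all named genes.

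Median ratios over the members lay close to 0. The fitted 6-week median was -0.03, with 43 members above 0 and 54 below, and the median of named genes was -0.01. The 1-week median was -0.01, with 46 above and 51 below, and the median of named genes was -0.01. Only Aldh1a1 had a 6-week mean over 1 log2 unit in size (1.03% of members, against 1.01% of named genes), and only Cyp2f2 had such a 1-week mean (1.03%, against 1.53%). The median standard error of a member was 0.24 at 6 weeks and 0.20 at 1 week.

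Counts of repeated signs depended on the direction of the dye-reversed arrays. All 3 6-week arrays had 1 sign for 29 members, which is 29.9%, against 24% of named genes. Of these, 10 were positive (10.3%, against 11.6% of named genes) and 19 negative (19.6%, against 12.4%), and 2 of the 3 arrays hold the same RNA. With the 6-week dye-reversed array turned, 17 were positive (17.5%, against 12.5%) and 6 negative (6.19%, against 12.1%). All 3 1-week arrays had 1 sign for 26 members (26.8%, against 30.5% of named genes). They were positive for 12 members (12.4%, against 15.4%) and negative for 14 (14.4%, against 15.1%). All 6 arrays had 1 sign for 4 members (4.12%, against 6.63%), namely Aldh1a1, which was positive (1.03%, against 3.23%), and Cyp2d22, Gstp1 and Sult1e1, which were negative (3.09%, against 3.39%). Cyp4b1 and Sult1a1 were negative on all 6-week and positive on all 1-week arrays (2.06%, against 1.45% of named genes), and Mgst3 was the reverse (1.03%, against 1.19%). Turning both dye-reversed arrays changes the sign of 1 array at each time, which ends such a pattern for any gene. That these 7 members lose it is therefore no result about them. With both turned, 6 others had 1 sign on all 6 arrays, with Cyp4a12b, Gsta3 and Sult3a1 positive and Gstm3, Gsto1 and Gstt4 negative.

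**Figure D1:**
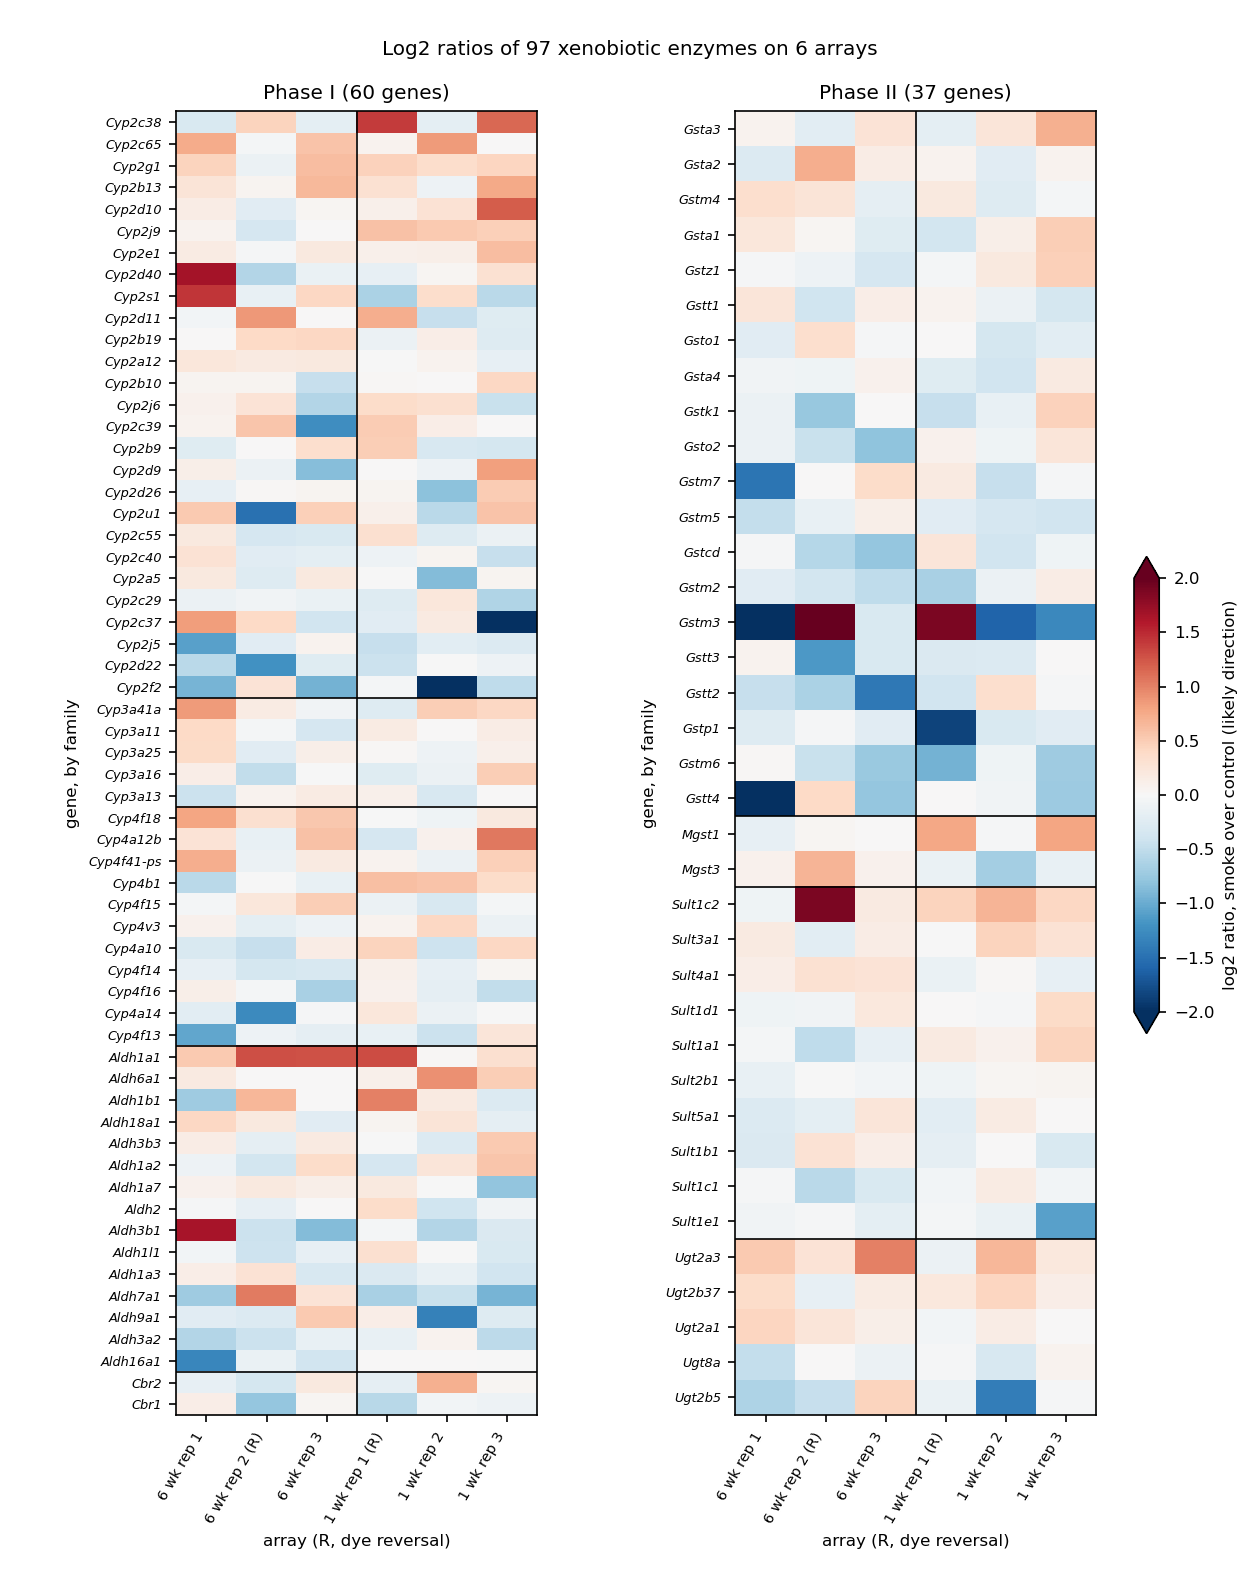
Log2 ratio of smoke over control for each of the 97 members (rows, by family) on each of the 6 arrays (columns), on a colour scale centred on 0. Most cells are pale, and few members keep 1 colour across a line: 4 of 97 have 1 sign on all 6 arrays.

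Spots of the same gene often differed. Each of 95 members had 2 spots and Cyp2d10 and Gsto2 had 4. For 48 of 97 members (49.5%) the spots lay within 1 log2 unit of each other on every array, against 5625 of 11138 named genes (50.5%). Across the 95 pairs, taken as a description, the correlation between spots was highest on 1-week replicate 1 at 0.62 and lowest on 1-week replicate 3 at 0.02. Named genes with agreeing spots were therefore also fitted on their own. In that fit 12 of 5625 genes passed at 6 weeks (0.213%), 102 at 1 week (1.81%), 0 for the difference (0%) and 103 for the mean of both times (1.83%), and none of the 48 members passed in any. At an unadjusted p under 0.05 the members numbered 5 at 6 weeks (10.4%, against 7.77% of these genes), 5 at 1 week (10.4%, against 14.1%), 4 for the difference (8.33%, against 6.72%) and 5 for the mean (10.4%, against 14.3%). The member nearest to the threshold was Aldh1a1 for the mean of both times, with an adjusted p of 0.0787 in that fit.

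**Figure D2:**
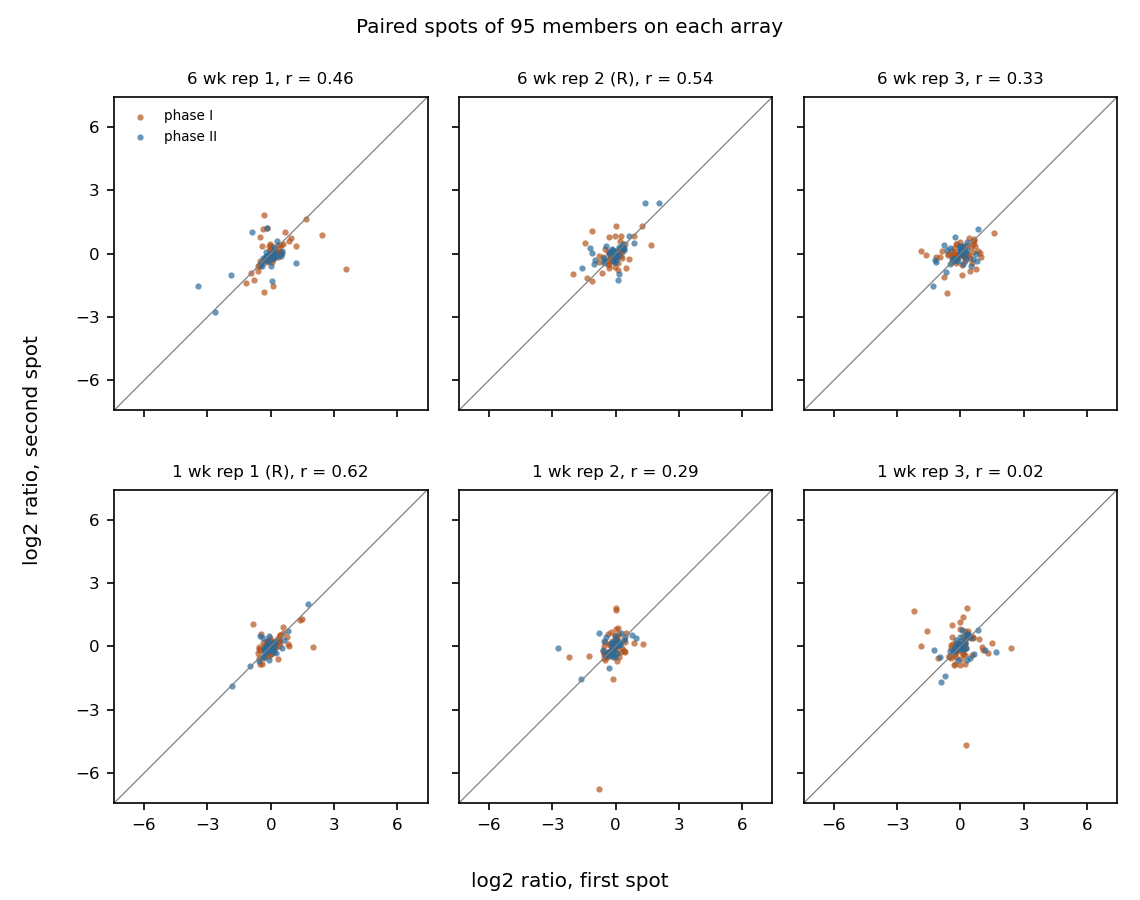
Log2 ratio of the second spot against the first for the 95 members with 2 spots, 1 panel per array, coloured by phase, with the line of equality and Pearson's r across members. Points follow the line most closely on 1-week replicate 1 (r = 0.62) and scatter around it on 1-week replicate 3 (r = 0.02).

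The phase I and phase II medians differed by little, and their order changed between arrays. On the 6-week arrays the phase I median minus the phase II median was 0.17, -0.04 and 0.01 for replicates 1, 2 and 3. The replicate mean was 0.05 ± 0.06 (SD, n = 2). For it the dye swap was averaged gene by gene before the medians were taken, so it is not the mean of the values listed. On the 1-week arrays the difference was 0.11, 0.07 and -0.01, a mean of 0.06 ± 0.06 (SD, n = 3). Phase I was the higher of the pair on 4 of 6 arrays. No test was made of a score over chosen members. Without 6-week replicate 1 the 6-week mean was -0.01. Fitted 6-week means were positive for 27 and negative for 33 of the 60 phase I members, and positive for 16 and negative for 21 of the 37 phase II members. At 1 week these counts were 33 positive and 27 negative in phase I, and 13 positive and 24 negative in phase II.

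**Figure D3:**
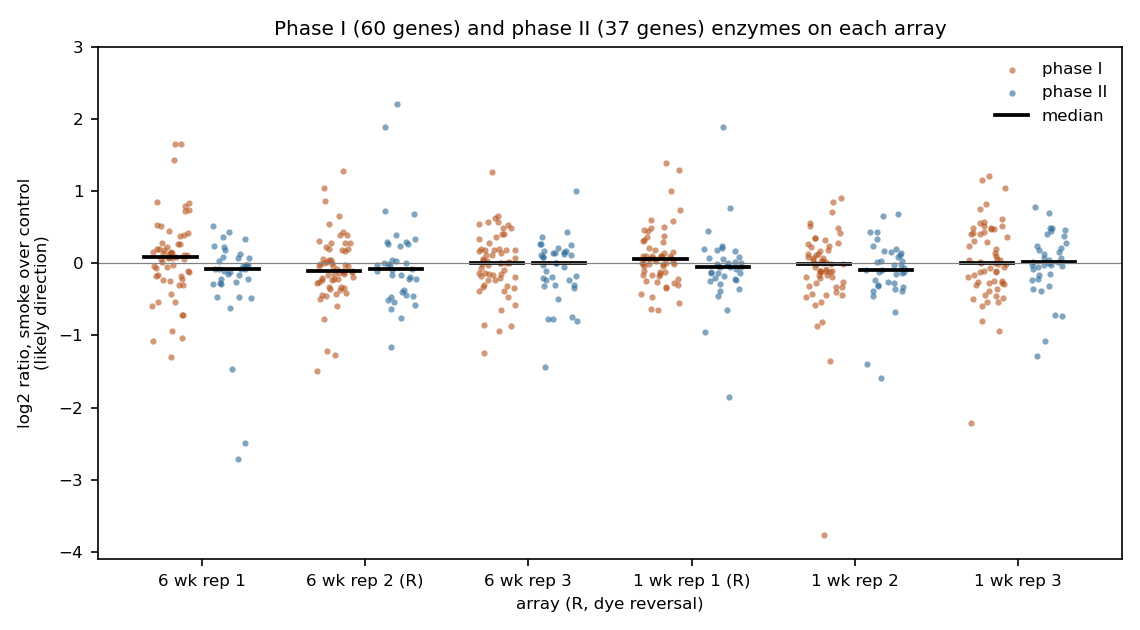
Log2 ratio of smoke over control for phase I and phase II members on each of the 6 arrays, as points for the members with each class's median. Both medians stay within 0.11 log2 units of 0 on every array, and their order changes between arrays.

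Among the Cyp2 genes, which carry out much of the oxidation of drugs and environmental compounds, 6-week values scattered around 0, with 13 positive and 14 negative means. The 1-week mean was positive for 14 and negative for 13. The extremes by the mean of both times were Cyp2g1, a P450 of olfactory epithelium, and Cyp2f2, the airway club cell enzyme that activates naphthalene. Cyp2g1 gave 0.45, -0.12 and 0.62 on 6-week replicates 1, 2 and 3, and 0.46, 0.35 and 0.43 on 1-week replicates 1, 2 and 3. Only the 6-week dye-reversed array was below 0. Its mean over both times was 0.40 ± 0.13 (SE), with an adjusted p of 0.697, and its 2 spots differed by up to 1.24.

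Cyp2f2 gave -0.93, 0.28 and -0.94 on the 6-week arrays and -0.04, -3.77 and -0.50 on the 1-week arrays. The lowest value was an average of spots at -0.79 and -6.75 on 1-week replicate 2. The 1-week mean was -1.44 ± 0.74 (SE; adjusted p = 0.747), and without that replicate it was -0.27.

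Cyp2j9, which belongs to the subfamily that makes epoxides of arachidonic acid, gave 0.06, -0.33 and 0.01 on the 6-week arrays. It was positive on all 1-week arrays, at 0.59, 0.52 and 0.47. The difference, 6-week minus 1-week, of -0.58 ± 0.23 (SE) had an adjusted p of 0.952, and the 1-week mean of 0.52 ± 0.15 had one of 0.663. All 3 6-week arrays were below all 3 1-week arrays, and the dye-swapped pair among them holds the same RNA. Turning both dye-reversed arrays would put 1-week replicate 1 below 0 and 6-week replicate 2 above 0, and the times would overlap. The times of Cyp4f18, Aldh16a1 and Gstt2, described below, would then overlap as well. How many named genes have times that do not overlap was not counted, here or for the members described below.

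Cyp2d22, of the subfamily that oxidises many amine drugs, was negative on every array, with -0.54, -1.21 and -0.24 at 6 weeks and -0.43, -0.01 and -0.10 at 1 week. Its spots differed by no more than 0.50. Its mean over both times was -0.37 ± 0.16 (SE; adjusted p = 0.808), and with both dye-reversed arrays turned it was 0.08. On 1-week replicate 2 the value of -0.01 averaged spots at 0.24 and -0.26, and on replicate 3 the spots gave 0.14 and -0.34. The sign of Cyp2d22 on those arrays is that of the average only. Cyp2e1, which oxidises ethanol and small solvents and is described here after its values were seen, gave 0.16, -0.03 and 0.19 at 6 weeks and 0.10, 0.12 and 0.61 at 1 week, positive on 5 of 6 arrays.

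The 5 Cyp3 genes, of the family that oxidises many drugs and steroids, had means close to 0. Their 6-week means ran between -0.09 and 0.22 and their 1-week means between -0.07 and 0.21. Cyp3a41a had the highest mean, with 0.85, 0.17 and -0.07 at 6 weeks and -0.27, 0.49 and 0.42 at 1 week. Cyp3a13 had the lowest, with -0.43, 0.06 and 0.17 at 6 weeks and 0.10, -0.33 and 0.00 at 1 week. Both had arrays on either side of 0 at each time.

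Cyp4 enzymes mainly hydroxylate fatty acids and the lipid mediators derived from them. Cyp4f41-ps, which the symbol rule included, is named as a pseudogene. Among the 11, Cyp4b1, a P450 abundant in lung, was negative on all 6-week arrays, at -0.54, -0.01 and -0.15. On the 1-week arrays it was positive, at 0.60, 0.56 and 0.37. Its spots agreed within 0.17, and the groups of arrays did not overlap. The 1-week mean was 0.51 ± 0.15 (SE; adjusted p = 0.675). The difference, 6-week minus 1-week, was -0.72 ± 0.24 (SE), with an adjusted p of 0.952, and with both dye-reversed arrays turned it was -0.32.

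Cyp4f18, which inactivates leukotriene B4 in mouse leukocytes, gave 0.79, 0.32 and 0.54 on the 6-week arrays and -0.01, -0.08 and 0.19 on the 1-week arrays. All 6-week arrays were above all 1-week arrays. The 6-week mean was 0.55 ± 0.18 (SE), with an unadjusted p of 0.0285 and an adjusted p of 1. Cyp4a12b and Cyp4f16 were the extremes by the mean of both times. Cyp4a12b, a fatty acid hydroxylase, gave 0.28, -0.14 and 0.58 at 6 weeks and -0.33, 0.09 and 1.05 at 1 week, negative on both dye-reversed arrays alone. Cyp4f16 gave 0.11, -0.04 and -0.64 at 6 weeks and 0.08, -0.18 and -0.48 at 1 week, with arrays on either side of 0 at each time.

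Aldehyde dehydrogenases oxidise aldehydes to acids, and Aldh1a1 makes retinoic acid from retinaldehyde. Aldh1a1 was the only member positive on all 6 arrays, with 0.53, 1.28 and 1.27 at 6 weeks and 1.30, 0.03 and 0.32 at 1 week. Its highest and lowest 1-week arrays were far apart, and its 3 highest values were on both dye-reversed arrays and on 6-week replicate 3. The 6-week mean was 1.08 ± 0.34 (SE; adjusted p = 1), the 1-week mean 0.55 ± 0.28 (SE; adjusted p = 0.747) and the mean of both times 0.82 ± 0.22 (SE; adjusted p = 0.658). Its 2 spots differed by no more than 0.62, and the 0.03 on 1-week replicate 2 averaged spots at -0.18 and 0.24. With both dye-reversed arrays turned, the means were 0.44 at 6 weeks, -0.32 at 1 week and 0.06 over both times.

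Aldh7a1, which acts in lysine breakdown, gave -0.72, 1.04 and 0.28 at 6 weeks and -0.65, -0.44 and -0.93 at 1 week. It was negative on 4 of 6 arrays, and its spots differed by up to 1.87. The 1-week mean was -0.67 ± 0.17 (SE), with the smallest unadjusted p of any member at that time, 0.00864, and an adjusted p of 0.601. Turning both dye-reversed arrays would put Aldh7a1 below 0 on 6-week replicate 2 and above 0 on 1-week replicate 1. Its 1-week arrays would then differ in sign. Aldh16a1, an atypical member of its family, was at -1.30, -0.13 and -0.38 at 6 weeks and at 0.00, 0.00 and -0.01 at 1 week. All 6-week arrays were below all 1-week arrays. However, both spots gave the same value on each 1-week array and the same -0.38 on 6-week replicate 3. Whether such equal values were measured ratios is not known. On 6-week replicate 1 the spots gave -1.18 and -1.41, and on its dye swap -0.26 and 0.00. Its 6-week mean was -0.55 ± 0.19 (SE; adjusted p = 1).

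Carbonyl reductases reduce ketones and quinones with NADPH. Cbr1 gave 0.13, -0.77 and 0.03 at 6 weeks and -0.56, -0.06 and -0.10 at 1 week. Cbr2, known from mouse lung, gave -0.17, -0.34 and 0.19 at 6 weeks and -0.18, 0.71 and 0.04 at 1 week. Cbr1 was negative on all 1-week arrays, with its lowest values on both dye-reversed arrays, and Cbr2 had arrays on either side of 0 at each time.

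Glutathione transferases had a family median below 0 on each array as deposited. The median of the 20 Gst genes was -0.11, -0.13 and -0.23 on the 6-week arrays and -0.12, -0.19 and -0.02 on the 1-week arrays, negative on all 6. The median of the other 17 phase II genes was -0.07, -0.01 and 0.13 at 6 weeks and -0.05, 0.03 and 0.05 at 1 week. Between 11 and 16 of the 20 were negative on any array (55% to 80%), against 47.3% to 51.8% of named genes. Fitted means were negative for 14 of 20 at 6 weeks (median -0.19) and for 16 of 20 at 1 week (median -0.12). These medians were noticed in the data and are a description. They differ in size from array to array. At 6 weeks the replicate mean was -0.23 ± 0.003 (SD, n = 2), with the dye swap averaged gene by gene before the median was taken. It is therefore not the mean of the array medians above, and an SD of 2 replicates is a poor measure of spread. At 1 week the replicate mean was -0.11 ± 0.08 (SD, n = 3). With both dye-reversed arrays turned, the median was 0.13 on 6-week replicate 2 and 0.12 on 1-week replicate 1, and the replicate means were -0.09 at 6 weeks and -0.03 at 1 week. Mu-class genes are close in sequence, so some of these spots may read each other's RNA, which was not tested.

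Gstp1, the pi-class enzyme, was negative on every array, at -0.26, -0.02 and -0.23 at 6 weeks and -1.85, -0.30 and -0.23 at 1 week. The value on the dye-reversed 1-week replicate 1 was far below the others. Its spots agreed within 0.27. The 1-week mean was -0.79 ± 0.35 (SE; adjusted p = 0.747). Without that replicate it was -0.27, and with that array turned it was 0.44. Its promoter is among those printed above.

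Gstm6, a mu-class enzyme, gave 0.03, -0.45 and -0.75 at 6 weeks and -0.94, -0.09 and -0.71 at 1 week, below 0 on 5 of 6 arrays. Its mean over both times was -0.53 ± 0.18 (SE; adjusted p = 0.734). Gstm5, a mu-class gene described after its values were seen, was below 0 on 5 of 6 arrays as well, at -0.48, -0.16 and 0.11 at 6 weeks and -0.23, -0.33 and -0.38 at 1 week. Gstm1, which was set apart by the rule, was negative on all 6, at -0.73, -0.42 and -0.55 at 6 weeks and -0.95, -0.45 and -0.69 at 1 week. Gstm6, Gstm5 and Gstm1 were negative on both dye-reversed arrays, so with these turned each would be positive there.

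Gstm3 followed the dye labels. It gave 2.21 on the dye-reversed 6-week replicate 2 and 1.89 on the dye-reversed 1-week replicate 1. On the other arrays it gave -2.71 and -0.30 on 6-week replicates 1 and 3, and -1.59 and -1.28 on 1-week replicates 2 and 3. The reversed arrays held its only positive values, and its spots agreed within 0.76. Its mean was -0.28 ± 0.85 (SE; adjusted p = 1) at 6 weeks and -0.33 ± 0.69 (SE; adjusted p = 0.921) at 1 week. With both dye-reversed arrays turned, all 6 values were negative and the means were -1.38 at 6 weeks and -1.59 at 1 week. Gstm3, Gsto1 and Gstt4 were the 3 members positive on both reversed arrays and negative on the other 4 (3.09%, against 3.78% of named genes). Cyp4a12b, Gsta3 and Sult3a1 showed the opposite pattern (3.09%, against 2.55%). Gstm3 was chosen after its values were seen.

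Correlations between arrays across the members moved with Gstm3. Over the 48 members with agreeing spots, Pearson's r between arrays of unlike dye label ran between -0.45 and 0.29 over 8 pairs, with a median of -0.24. Without Gstm3 it ran between -0.16 and 0.45, with a median of 0.14. For the dye swap, the r over these members was -0.22 with Gstm3 and 0.26 without. Without Gstm3, the pair of reversed arrays had an r of 0.37, and the 6 pairs of unreversed arrays a median of 0.19. Over all 97 members the r of the dye swap was -0.24 with Gstm3 and -0.07 without, and the median over unlike labels was -0.08 with Gstm3 and 0.05 without. Over all 11138 named genes the r of the dye swap was -0.03, and over the 5625 with agreeing spots it was 0.05. The pair of reversed arrays had an r of 0.27 and 0.43 over the same sets of genes. These correlations are across genes of shared arrays and are given as a description.

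Theta-class Gstt2 and Gstt4 were lowest at 6 weeks. Gstt2 gave -0.46, -0.64 and -1.44 at 6 weeks and -0.38, 0.34 and -0.03 at 1 week, so that all 6-week arrays were below all 1-week arrays. Its 6-week mean was -0.99 ± 0.30 (SE; unadjusted p = 0.0191, adjusted p = 1). Gstt4 gave -2.50, 0.40 and -0.78 at 6 weeks and 0.01, -0.07 and -0.73 at 1 week. Its spots differed by up to 1.91, and the pair of dye-swapped arrays had opposite signs. The 6-week mean of -0.91 ± 0.25 (SE; adjusted p = 1) was -0.19 without 6-week replicate 1. Gsta3, an alpha-class enzyme with the highest mean of the family, gave 0.07, -0.21 and 0.27 at 6 weeks and -0.20, 0.24 and 0.70 at 1 week, negative on both dye-reversed arrays.

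The microsomal transferases Mgst1, which protects membranes against lipid peroxides, and Mgst3, which can form leukotriene C4, differed in their pattern. Mgst1 gave -0.16, 0.04 and 0.00 at 6 weeks and 0.77, -0.03 and 0.78 at 1 week, high on 2 of the 1-week arrays. Its 1-week mean was 0.51 ± 0.22 (SE; adjusted p = 0.747), and with the dye-reversed array turned it was -0.0041. Mgst3 gave 0.09, 0.69 and 0.09 at 6 weeks and -0.14, -0.68 and -0.15 at 1 week. All its 6-week arrays were above 0 and all its 1-week arrays below. The difference, 6-week minus 1-week, was 0.56 ± 0.29 (SE; adjusted p = 0.952), and 0.13 with both dye-reversed arrays turned.

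Sulfotransferases transfer sulfate to phenols, steroids and other hydroxyl groups. Sult1c2 had the highest mean over both times, with -0.08, 1.88 and 0.18 at 6 weeks and 0.45, 0.68 and 0.41 at 1 week. Only 6-week replicate 1 was below 0, and its dye swap gave the highest value. The mean over both times was 0.53 ± 0.16 (SE; adjusted p = 0.673), and with both dye-reversed arrays turned it was -0.09. Its spots differed by up to 1.01. Sult1e1, the estrogen sulfotransferase, was negative on every array, at -0.07, -0.03 and -0.20 at 6 weeks and -0.04, -0.14 and -1.08 at 1 week. All but 1-week replicate 3 were within 0.20 of 0, and its spots differed by up to 1.17. Sult1a1, a phenol sulfotransferase, gave -0.04, -0.51 and -0.17 at 6 weeks and 0.18, 0.08 and 0.45 at 1 week. Its times did not overlap and its spots agreed within 0.10. The difference, 6-week minus 1-week, was -0.46 ± 0.25 (SE; adjusted p = 0.952), and -0.08 with both dye-reversed arrays turned.

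Glucuronosyltransferases of the Ugt2 family attach glucuronic acid to steroids and foreign phenols. Ugt8a, which the symbol rule included, is not of that family. Ugt2a3 had the highest mean of the 5 Ugt genes, with 0.53, 0.28 and 1.00 at 6 weeks and -0.12, 0.66 and 0.21 at 1 week. It was positive on 5 of 6 arrays. The 6-week mean was 0.70 ± 0.27 (SE; adjusted p = 1), and its spots differed by up to 1.40. Ugt2b5, a liver enzyme, had the lowest mean, with -0.61, -0.47 and 0.44 at 6 weeks and -0.14, -1.39 and -0.03 at 1 week, and its spots differed by up to 2.66.

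**Figure D4:**
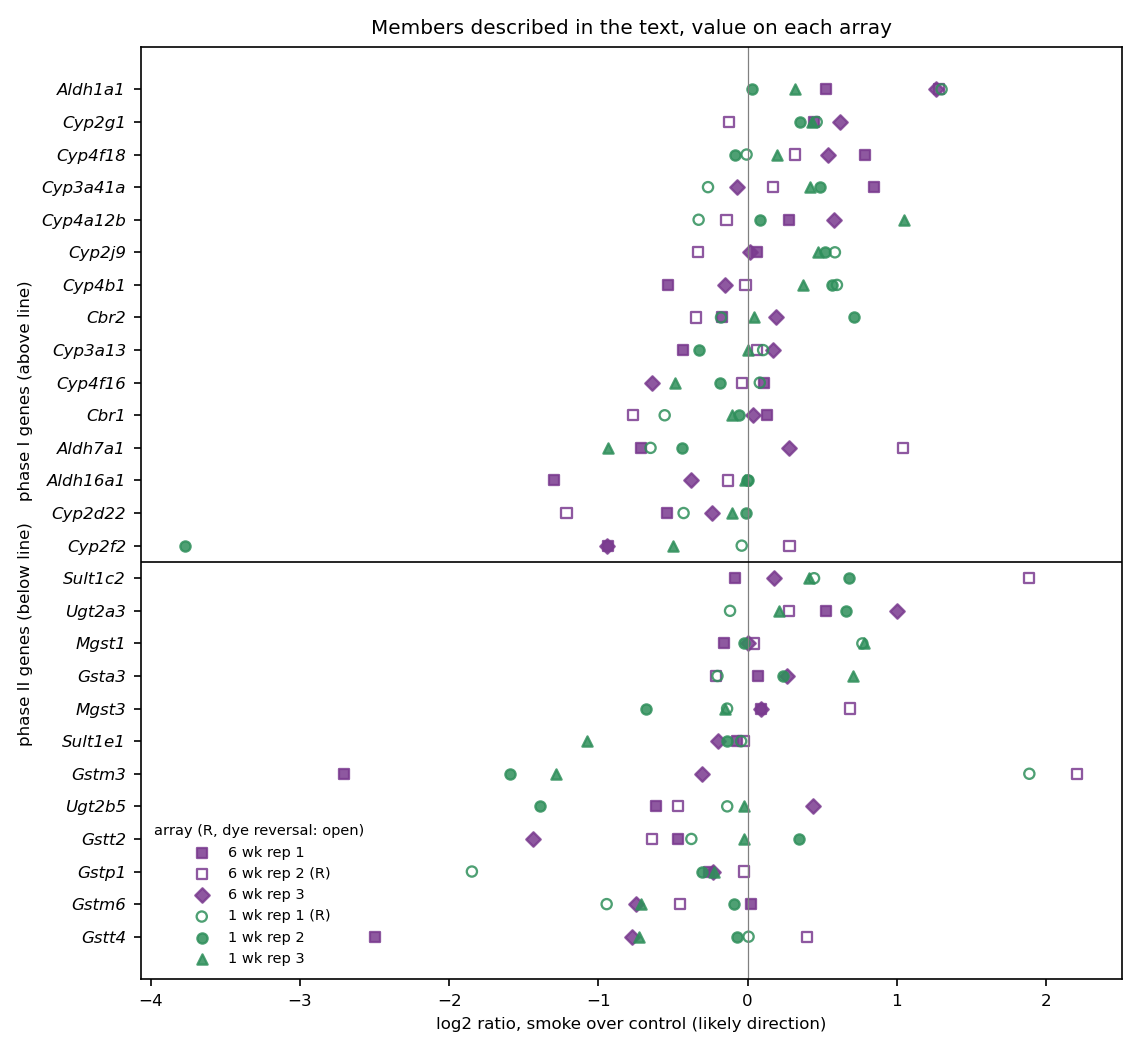
Log2 ratio of smoke over control on each array for 26 members described in the text and Gstm3, phase I above the line and phase II below it. Squares and diamonds are 6-week arrays, circles and triangles 1-week arrays, and open symbols the dye-reversed arrays. The open symbols of Gstm3 lie at 2.21 (6 weeks) and 1.89 (1 week), apart from its 4 filled ones.

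Of 73 listed electron partners, other oxidases and transferases, cofactor enzymes, export pumps and regulators, 56 were measured, and none passed the adjusted threshold at either time. At an unadjusted p under 0.05, 1 was positive and 1 negative at 6 weeks, and 3 were positive and 2 negative at 1 week. That is 3.57% at 6 weeks, against 4.03% of named genes, and 8.93% at 1 week, against 7.49%. Cyb5a, which donates electrons to P450s, gave -0.34, -0.78 and -0.21 at 6 weeks and -0.96, -0.31 and -0.85 at 1 week, below 0 on every array. With both dye-reversed arrays turned, Cyb5a would be positive on those and negative on the others. Abcb1a, a drug export pump of endothelium, gave 0.22, -0.05 and 0.35 at 6 weeks and 0.44, 0.65 and 0.80 at 1 week, positive on 5 of 6. Of the aryl hydrocarbon receptor targets that are not members, Cyp1b1 was positive on all 6, with 0.85, 1.57 and 0.43 at 6 weeks and 1.30, 0.08 and 0.40 at 1 week, and with both dye-reversed arrays turned its means were 0.03 at 6 weeks and -0.28 at 1 week. Cyp1a1, a P450 induced through that receptor, had means of -0.06 at 6 weeks and -0.01 at 1 week. Aldh3a1 had 0.13 at 6 weeks and -0.44 at 1 week, and Ugt1a6a had -0.27 at 6 weeks and 0.25 at 1 week.

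Hepatocyte markers are given beside the liver-type members because many of these enzymes are made in liver. Of 8 measured, 7 were positive at 6 weeks with a median of 0.28, and 4 were positive and 4 negative at 1 week with a median of 0.01. Serpina1c gave 1.47, 2.17 and 2.36 at 6 weeks and 0.51, 0.55 and 0.43 at 1 week, positive on all 6, and Ahsg was positive on all 6 as well, with a 6-week mean of 1.53. With the dye-reversed arrays turned, both genes would be negative on those arrays. Alb gave -0.08, -1.30 and -0.14 at 6 weeks and 0.15, 0.23 and -0.20 at 1 week. Club and alveolar epithelial markers had medians of 0.03 at 6 weeks and -0.12 at 1 week over 8 genes, and 13 endothelial markers had -0.26 and -0.06. The part of such cells in the members' ratios was not tested.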

How the data were processed

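RNA of endothelial cells was hybridised to 2-channel arrays, with smoke in channel 1 and control in channel 2 per the labels. The values used are the authors' deposited log2 ratios of 32448 features, already centred on a median of 0 on each array. The steps the authors took to make them, a genome build and background intensities were not given in the sources used here, so signal over background is unknown.

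Features were named through the platform annotation. It gave 1 symbol for 24344 features, several for 98 and none for 8006. Spots of a gene were averaged, which gave 11138 named genes and 8104 unnamed features, 19242 tests in all. All 97 members matched a RefSeq symbol. The members, their lists and the tests were chosen with earlier results of these data known.

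The 6-week dye swap was averaged to 1 replicate, and limma 3.58.1 in R 4.3.3 was fitted to the 5 replicates with exposure time as the factor, 3 residual degrees of freedom, and 2-sided p-values with Benjamini-Hochberg adjustment. Means are given ± SE of that fit. The median over members of each array and the phase I minus phase II difference got no test. Members described in full had an unadjusted p under 0.05, or 1 sign on all 6 arrays, or the highest or lowest mean of their family, 26 in all. The fit was tested on simulated data. Alternatives were the sign of the dye-reversed arrays, agreeing spots alone, centring, scaling, quantile normalization, the dye swap as separate replicates, the variance model, a threshold of 0.1 and leaving out each array.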

Additional observations from a re-analysis of the deposited data

Results flagged for a closer look

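For Cyp4b1, Sult1a1 and Mgst3 the 6-week arrays all had one sign and the 1-week arrays all the other. Named genes had the pattern of Cyp4b1 and Sult1a1 (negative at 6 weeks, positive at 1 week) in 1.45%, and that of Mgst3 in 1.19%, and the members numbered 2 and 1 of 97. The difference itself, 6-week minus 1-week, was tested in limma's fit. It was -0.72 ± 0.24 (SE) for Cyp4b1, -0.46 ± 0.25 for Sult1a1 and 0.56 ± 0.29 for Mgst3, with an adjusted p of 0.952 for each. Turning both dye-reversed arrays ends this pattern for any gene that has it, and the differences were then -0.32, -0.08 and 0.13. Among genes whose spots agreed, fitted on their own, the differences had an adjusted p of 0.574 for Cyp4b1, 0.81 for Sult1a1 and 0.771 for Mgst3. The 6-week dye swap used 1-week control, and length of exposure and week of the control cannot be told apart there.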

How the results depend on the processing

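No member passed an adjusted p of 0.05 in limma's test in any comparison under any alternative run, including those that turned the dye-reversed arrays among genes with agreeing spots, which were chosen after seeing the data. Of all genes with agreeing spots, 12 passed at 6 weeks and 102 at 1 week, against 0 and 0 of all 19242. The smallest adjusted p of a described member was 0.0787 (Aldh1a1, agreeing spots). At a threshold of 0.1, Aldh1a1 passed for the mean of both times in the fit of agreeing spots, and no member passed in the fit of all genes. Following 1 comparison for each of the 26 described members, 421 of 430 alternative values kept their direction and side of the threshold and 9 changed sign. Since no described member passed in any fit, only the sign could differ, and a change of the variance model cannot alter a mean. The count is therefore no measure of how firm the values are. Over all 4 comparisons of each, 14 of 104 means changed sign with the 6-week dye-reversed array turned and 28 of 104 with both turned. With both dye-reversed arrays turned, Cyp2d22 (0.0771), Cbr1 (0.1866) and Sult1c2 (-0.0938) changed sign for the mean of both times, and Gstp1 (0.4392) and Mgst1 (-0.0041) at 1 week. Cbr1 was also 0.0013 with the 6-week dye-reversed array turned and 0.001 on the 4 other arrays. Leaving out single replicates, the 1-week value ran between -0.0675 and 0.3783 for Cbr2 and between -0.1634 and 0.0521 for Cyp3a13, each changing sign without 1-week replicate 2. The 1-week phase I minus phase II difference was -0.0157 with both turned, and 0.0308 to 0.0919 without single replicates. At 6 weeks it was -0.0143 (without 6-week replicate 1) to 0.0925 without single replicates. The 6-week member median of -0.03 was 0.038 with the 6-week or both dye-reversed arrays turned. The 6-week Gst median ran between -0.23 and -0.09. The cause was not tested. Smoke and control were compared within each array. Arrays of the 2 times could not be paired with each other because the labels give no replicate numbers. The number of arrays limits the precision.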

Other observations

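Among 7 measured export pumps, 3 were positive at 6 weeks with a median of -0.22, and 6 were positive at 1 week with a median of 0.19. Among 14 other transferases and cofactor enzymes, 4 were positive at 6 weeks with a median of -0.13, and 6 were positive at 1 week with a median of -0.07. Adh5, which oxidises formaldehyde bound to glutathione, gave 0.76, 0.50 and 0.56 on the 6-week arrays, with a 6-week mean of 0.60 ± 0.18 (SE), which did not pass the adjusted threshold in limma's fit.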
